A study of Drosophila melanogaster with 164 samples.

Results

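DGRP391 is 1 of 41 lines studied from the Drosophila Genetic Reference Panel, all inbred from wild-caught Drosophila melanogaster. Its whole-body transcriptome was compared with that of the 40 other lines, once in adults and once in feeding larvae of the 3rd instar. The DGRP391 libraries were taken by their line label and numbered 4 of the 164 in the series, with 2 biological replicates per stage. The other lines contributed 80 adult and 78 larval libraries. Another pair of larval columns, of DGRP787 (replicate 1) and DGRP491 (replicate 2), had the same counts throughout, and neither was used.

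All 41 lines were untreated, carried no chromosomal inversion and had been picked to cover the range of starvation resistance in the panel. Where DGRP391 lies in that range is not stated in the labels. Flies were raised at 25 °C under 12 h of light on a cornmeal, molasses and agar food. Adults were collected within 48 h of emergence and held for 4 days, and larvae were taken while still feeding, at most 10 from a vial. A sample pooled a median of 17 adults or 20 larvae, and sex was given for neither stage. A panel line is 1 nearly homozygous genotype, so the replicates measure the spread between rearings of that genotype.

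As background, each panel line holds 1 fixed sample of the alleles that segregated in the wild population. Transcript levels are known to vary among such lines through variants close to a gene as well as through variants elsewhere in the genome. Feeding larvae hold gut, fat body and growing imaginal tissue among others, whereas the adult body adds flight muscle, mature nervous tissue and mature gonads. In bulk RNA of this kind, fewer cells of a type and less RNA per cell cannot be told apart.

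Total counts over the 7414 genes of the table were 17529020 and 13288234 in the DGRP391 adults, against a median of 8561732 in other adults. They were 7920829 and 11270454 in the DGRP391 larvae, against a median of 10533564.5 in other larvae. No value in the table was below 11 counts, so a transcript silent in any line at either stage was not analysed here. Over 429 genes that vary among adults of the lines, each of the 4 DGRP391 libraries correlated most with DGRP391 at the other stage. That r was 0.525 and 0.515 for the adults and 0.554 and 0.508 for the larvae, and the next line reached at most 0.197. These r are taken across genes and are a description without a test. A further 3 larval libraries, of other lines, matched a line other than the one on their label. They stayed in the comparison, and without them the counts of higher and lower larval genes were 140 and 95. The male-specific RNA roX1 stood at 635.1 and 821.3 CPM (counts scaled to a common library size after TMM normalisation) in DGRP391 adults, against 265.9 to 1628.1 CPM in other adults. In larvae it stood at 230.2 and 248.3 CPM, against 43.89 to 677.5 CPM in other larvae.

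The levels of 76 genes differed between DGRP391 and the mean of the other lines at both stages, 73 of them in the same direction. Among these 73 genes, 49 were higher and 24 were lower in DGRP391, and together they made up 0.985% of the 7414 genes tested. The 76 genes were 8.37% of the genes that differed in adults, where 2.56% of all genes differed in larvae. They were 40.0% of the genes that differed in larvae, where 12.2% of all genes differed in adults. A gene was called when the edgeR quasi-likelihood F test of DGRP391 against the mean of 40 line coefficients gave a Benjamini-Hochberg adjusted p under 0.05 at that stage. Across all genes, 54.3% had the same sign at both stages, and the 2 stages share no library. The fold changes below are differences of mean log2 levels, so a few lines with very high levels weigh less in them than in an arithmetic mean. Leaving out 1 DGRP391 library changed this count. It was 32 without adult replicate 1, 48 without adult replicate 2, and 25 without larval replicate 1 or without larval replicate 2.

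**Figure D1:**
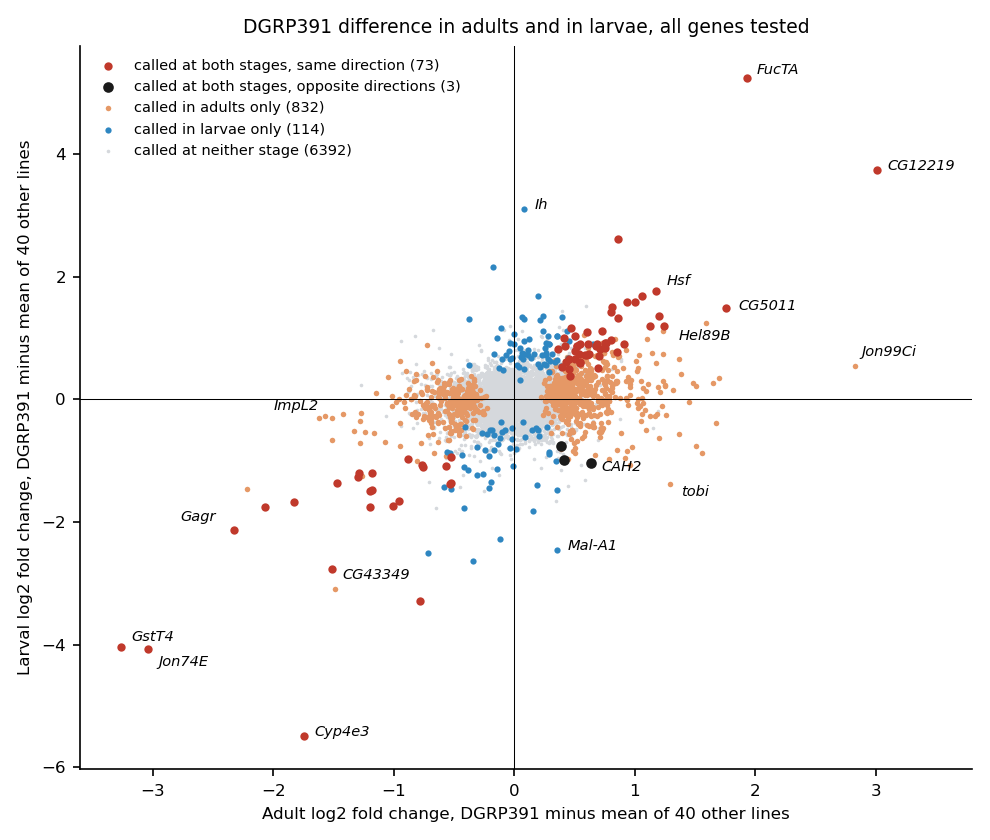
Each point is 1 of 7414 genes, with its log2 fold change between DGRP391 and the mean of 40 other lines in adults on the x axis and in larvae on the y axis. Red points are the 73 genes called at both stages in the same direction and black points are the 3 called in opposite directions. FucTA, CG12219, GstT4, Jon74E and Cyp4e3 lie farthest from the origin.

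For 10 genes, both DGRP391 libraries lay outside every library of the other lines at both stages. CG12219, Hel89B, Hsf, mEFG1 and FucTA lay above all of them, and CG31100, pAbp, GstT4, Gagr and CG5151 lay below. Of these 10, CG12219, Hel89B, Hsf, GstT4, Gagr and CG5151 also passed, at both stages, a stricter limma test in which each line counted as 1 value and DGRP391 was set against the spread among the other lines. FucTA passed that test in larvae and CG31100 in adults. In all, that test called 11 adult genes and 9 larval genes, every one of them also called above.

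FucTA, the fucosyltransferase that places core alpha-1,3-fucose on N-glycans, gave the largest increase in larvae. It had 129.1 and 106.2 CPM in DGRP391 adults, against 17.82, 28.43 and 90 CPM as the lowest, median and highest of other adults. In larvae, DGRP391 had 230 and 349.2 CPM, against 3.432, 7.622 and 19.23 CPM. The groups did not overlap at either stage. The log2 fold change was 1.93 ± 0.12 (SE) in adults and 5.23 ± 0.12 in larvae, which is 3.81-fold and 37.5-fold (edgeR adjusted p = 4.884e-17 and 7.425e-34). FucTA lies on 3L at 15147137 to 15154395 and shares sequence span with 1 gene on the opposite strand.

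CG12219, on X at 6299054 to 6301285, had 108.5 and 94.04 CPM in DGRP391 adults, against 7.637, 12.46 and 20.75 CPM as the lowest, median and highest of other adults. The DGRP391 larvae had 117.1 and 129.4 CPM, against 5.295, 9.145 and 15.47 CPM. Its level in DGRP391 was thus several times that of any other line at both stages. Its log2 fold change was 3.02 ± 0.11 (SE) in adults and 3.73 ± 0.10 in larvae. The corresponding edgeR adjusted p was 2.617e-27 in adults and 4.537e-32 in larvae.

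Hsf, the transcription factor that activates heat shock genes, had 168.1 and 175.7 CPM in DGRP391 adults, against 62.37, 74.15 and 108.8 CPM as the lowest, median and highest of other adults. In DGRP391 larvae it stood at 131.4 and 184.6 CPM, against 37.56, 46.79 and 58.73 CPM. DGRP391 held 2.27-fold as much Hsf RNA in adults and 3.38-fold as much in larvae as the mean of the other lines, with no overlap between groups. The log2 fold change was 1.18 ± 0.09 (SE) in adults and 1.76 ± 0.08 in larvae (edgeR adjusted p = 1.382e-14 and 1.603e-21). Of 26 annotated heat shock and cognate chaperone genes, only 12 were measured, and the others could not be compared. Of the 12 measured, 0 were higher in DGRP391 adults. The co-chaperone gene Stip1 alone was lower, or 8.33% called against 12.2% of all genes. The list median was -0.05, and it was 0.001 without adult replicate 2. In larvae, where 2.56% of all genes were called, none of the 12 passed in either direction, with a median of -0.13. Stip1 itself had 98.43 and 92.93 CPM in DGRP391 adults, against 95.79 to 184.1 CPM in other adults. The Stip1 call was lost with sequencing pool as a factor (edgeR adjusted p = 0.0524) and without adult replicate 1 or 2 (0.143 and 0.222).

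Hel89B, a helicase related to yeast Mot1, had 290 and 255.3 CPM in DGRP391 adults, against 66.28, 116.2 and 155.1 CPM as the lowest, median and highest of other adults. Larval levels were 142.9 and 174.1 CPM in DGRP391, against 47.33, 67.47 and 99.15 CPM. Its log2 fold change was nearly equal at both stages, at 1.24 ± 0.10 (SE) in adults and 1.20 ± 0.12 in larvae (edgeR adjusted p = 4.496e-13 and 2.506e-10). mEFG1, a mitochondrial translation elongation factor, had 58.35 and 51.44 CPM in DGRP391 adults, against 20.35 to 42.58 CPM in other adults. It had 66.81 and 61.86 CPM in DGRP391 larvae, against 18.01 to 48.14 CPM in other larvae.

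**Figure D2:**
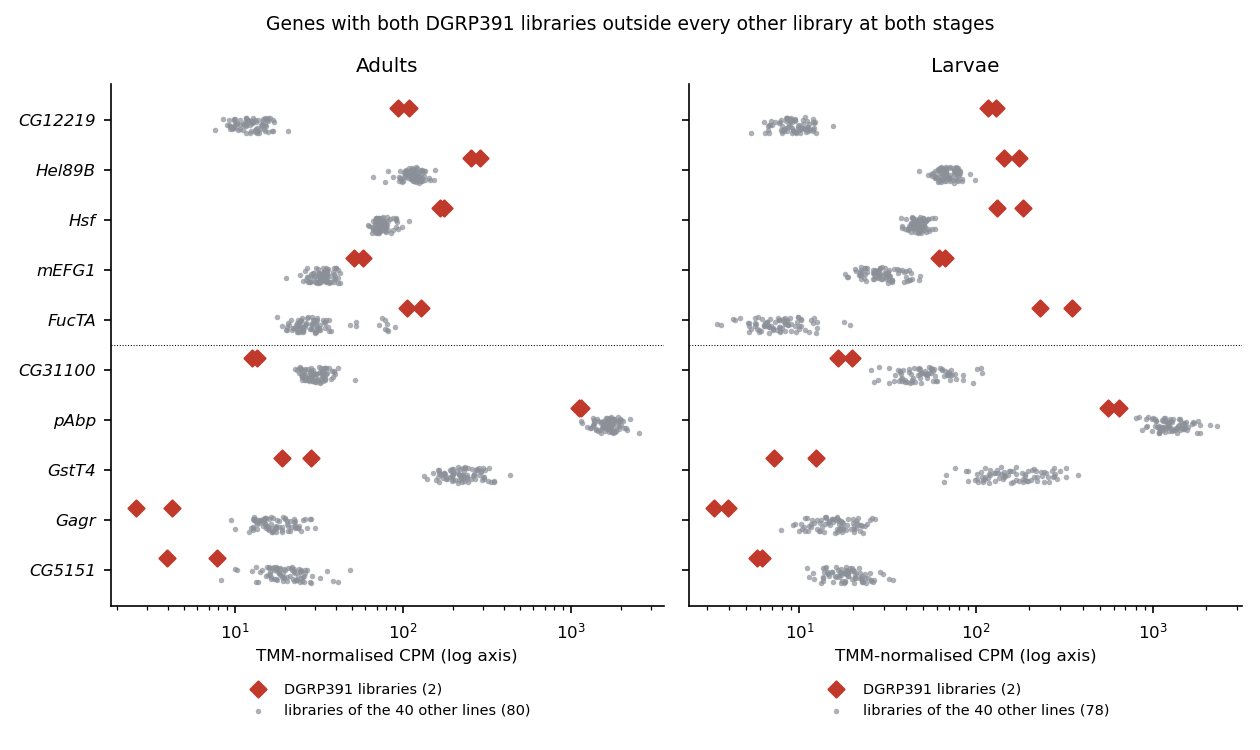
Level of each gene in every library, in TMM-normalised CPM on a log axis, with adults on the left and larvae on the right. Red diamonds are the 2 DGRP391 libraries of a stage, and grey points are the 80 adult or 78 larval libraries of the other lines. The diamonds of the upper 5 genes lie right of every grey point and those of the lower 5 genes lie left of every grey point, with pAbp the closest.

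Of the 5 genes below all other libraries, the theta-class glutathione S-transferase gene GstT4 had the largest fold change. It had 19.09 and 28.37 CPM in DGRP391 adults, against 134.9, 224.5 and 437.7 CPM as the lowest, median and highest of other adults. At the larval stage DGRP391 had 12.39 and 7.184 CPM, against 65.4, 159 and 378.8 CPM. Its log2 fold change was -3.26 ± 0.23 (SE) in adults and -4.04 ± 0.41 in larvae (edgeR adjusted p = 2.907e-15 and 7.844e-10).

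Gagr, a gene domesticated from a retroelement gag sequence, had 4.23 and 2.579 CPM in DGRP391 adults, against 9.544, 16.69 and 30.18 CPM as the lowest, median and highest of other adults. In larvae, DGRP391 had 3.946 and 3.288 CPM, against 7.881, 16.24 and 26.9 CPM. This was a log2 fold change of -2.32 ± 0.18 (SE) in adults and -2.13 ± 0.23 in larvae. CG5151 had 3.959 and 7.812 CPM in DGRP391 adults, against 8.257 to 48.35 CPM in other adults, and its 2 annotated same-strand overlapping genes leave its counts uncertain. It had 6.149 and 5.723 CPM in DGRP391 larvae, against 11.03 to 33.72 CPM in other larvae. Without adult replicate 1 the adult difference of CG5151 no longer passed (edgeR adjusted p = 0.0647).

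CG31100 had 13.61 and 12.68 CPM in DGRP391 adults, against 22.98 to 52.2 CPM in other adults, with a log2 fold change of -1.20 ± 0.15 (SE). The DGRP391 larvae had 16.52 and 19.73 CPM, against 25.55 to 107.4 CPM, with a log2 fold change of -1.50 ± 0.30. The larval adjusted p was 0.193 without larval replicate 1 and 0.0617 without larval replicate 2. The poly(A)-binding protein gene pAbp had 1147.7 and 1127.7 CPM in DGRP391 adults, against 1161.4 to 2537.3 CPM in other adults. It had 556.8 and 646 CPM in DGRP391 larvae, against 805.6 to 2302.7 CPM in other larvae. The adult groups of pAbp were thus separated by a margin smaller than the gap between the DGRP391 replicates. Its adult call was lost without adult replicate 1 or 2 (edgeR adjusted p = 0.182 and 0.186), and its larval call without larval replicate 1 or 2 (0.203 and 0.0552).

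Several genes called at both stages lie next to each other. Among the 76, 5 pairs lie within 10 kb, a distance chosen after the values were seen. In 3 of these pairs the neighbours moved in opposite directions at both stages. CG43349 and CG5011 lie on 2L at 1200205 to 1200663 and 1200671 to 1201220, with 7 bases between them. CG43349 was lower in DGRP391, with a log2 fold change of -1.52 in adults and -2.77 in larvae, and CG5011 was higher, with 1.76 and 1.48. CG5011 had 68.98 and 111.1 CPM in DGRP391 adults, against 7.078 to 58.5 CPM in other adults. CG43349 had 17.34 and 13.27 CPM in DGRP391 larvae, against 15.83 to 420 CPM in other larvae. Without adult replicate 1 the adult call of CG43349 was lost (edgeR adjusted p = 0.297), as was the larval call of CG5011 without larval replicate 1 (0.176).

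GstT4, on X at 13404749 to 13409323, is followed after 45 bases by CG1998, which ends at 13413074. CG1998 was higher in DGRP391, with a log2 fold change of 0.60 in adults and 0.73 in larvae, beside the reductions of GstT4 given above. Hsf, on 2R at 18130303 to 18134634, lies 5443 bases from pAbp, with 1 other gene of the table between them. The 2 pairs that moved together were CG18327 with CG18324 on 2R and the cytochrome P450 genes Cyp12a5 with Cyp12a4 on 3R. All 4 genes were called higher in DGRP391 at both stages, and reads of such similar neighbours may have been shared between them by the counting. Each of the 5 pairs lost at least 1 larval call without larval replicate 1, and all but CG43349 with CG5011 did so without larval replicate 2. Without larval replicate 1 the adjusted p was 0.784 for CG1998, 0.551 for CG18327, 0.559 for CG18324 and 0.459 for Cyp12a4. With pool as a factor the larval calls of these 4 genes were also lost (edgeR adjusted p = 0.309, 0.0949, 0.0927 and 0.211), and so was the adult call of CG18327 (0.106).

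Jon74E, a Jonah-family digestive serine protease, was strongly reduced in DGRP391 but not alone among the lines. It had 36.66 and 45.99 CPM in DGRP391 adults, against 2.574, 636.8 and 1978.6 CPM as the lowest, median and highest of other adults. In DGRP391 larvae it stood at 34.51 and 64.42 CPM, against 5.15, 1284.6 and 3782.6 CPM. The DGRP391 mean ranked 7 from the lowest of 41 lines in adults and 4 from the lowest in larvae. The log2 fold change was -3.04 ± 0.28 (SE) in adults and -4.08 ± 0.80 in larvae (edgeR adjusted p = 2.778e-11 and 0.001042). The larval p was 0.176 without larval replicate 1 and 0.0541 without larval replicate 2. The trypsin gene epsilonTry had 40.4 and 56.97 CPM in DGRP391 adults, against 27.42 to 854.6 CPM in other adults. It had 1281.1 and 1217.3 CPM in DGRP391 larvae, against 1229.3 to 11252.9 CPM. The larval call of epsilonTry was lost without larval replicate 1 or 2 (edgeR adjusted p = 0.176 and 0.174).

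The remaining genes with large changes at both stages lay within the range of the other lines in at least 1 stage. GstO3, an omega-class glutathione S-transferase, had 166.2 and 170.9 CPM in DGRP391 adults, against 13.83 to 209.8 CPM in other adults. Rdh1, a retinol dehydrogenase, had 73.1 and 78.85 CPM in DGRP391 adults, against 6.426 to 105 CPM, and 338.3 and 301.3 CPM in DGRP391 larvae, against 19.04 to 410.6 CPM in other larvae. Log2 fold changes at adult and larval stages were 1.21 and 1.36 for GstO3, 1.00 and 1.59 for Rdh1, 1.06 and 1.68 for CG3165, and 0.94 and 1.58 for CG31436. The gene FBgn0033981, which has no symbol in the annotation used, had 1.13 and 1.19. On the lower side, the neprilysin-like peptidase gene Nepl4 had -1.30 and -1.26, and CG31106 had -1.29 and -1.20. Leaving out 1 larval library ended the larval calls of GstO3, Nepl4 and CG31106, with adjusted p of 0.532, 0.193 and 0.256 without larval replicate 1. Without larval replicate 2 the larval p of GstO3 and FBgn0033981 was 0.0569. Nepl4 also lost its adult call without adult replicate 1 or 2 (0.116 and 0.102).

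In adults, 908 genes differed between DGRP391 and the mean of the other lines, 12.2% of the 7414 tested. Of these, 596 (8.04%) were higher and 312 (4.21%) were lower in DGRP391. The called genes had a median absolute log2 fold change of 0.52, and 57 genes were at least 2-fold higher and 34 at least 2-fold lower. Both DGRP391 libraries lay above every other adult library for 48 genes and below every other one for 16, and all of these were called. Without adult replicate 1 there were 212 higher and 54 lower genes, and without adult replicate 2 there were 232 and 129. The difference had the same sign against the other lines of each sequencing pool for 907 of the 908 genes. That comparison reuses the libraries that gave the calls, so it does not test an effect of pool. The same contrast for each of the other lines called between 225 and 2448 genes, with a median of 416.5, and 5 lines had more calls than DGRP391. The total counts of the DGRP391 adults were above the median of the others, and the part of depth in its number of calls was not tested.

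**Figure D3:**
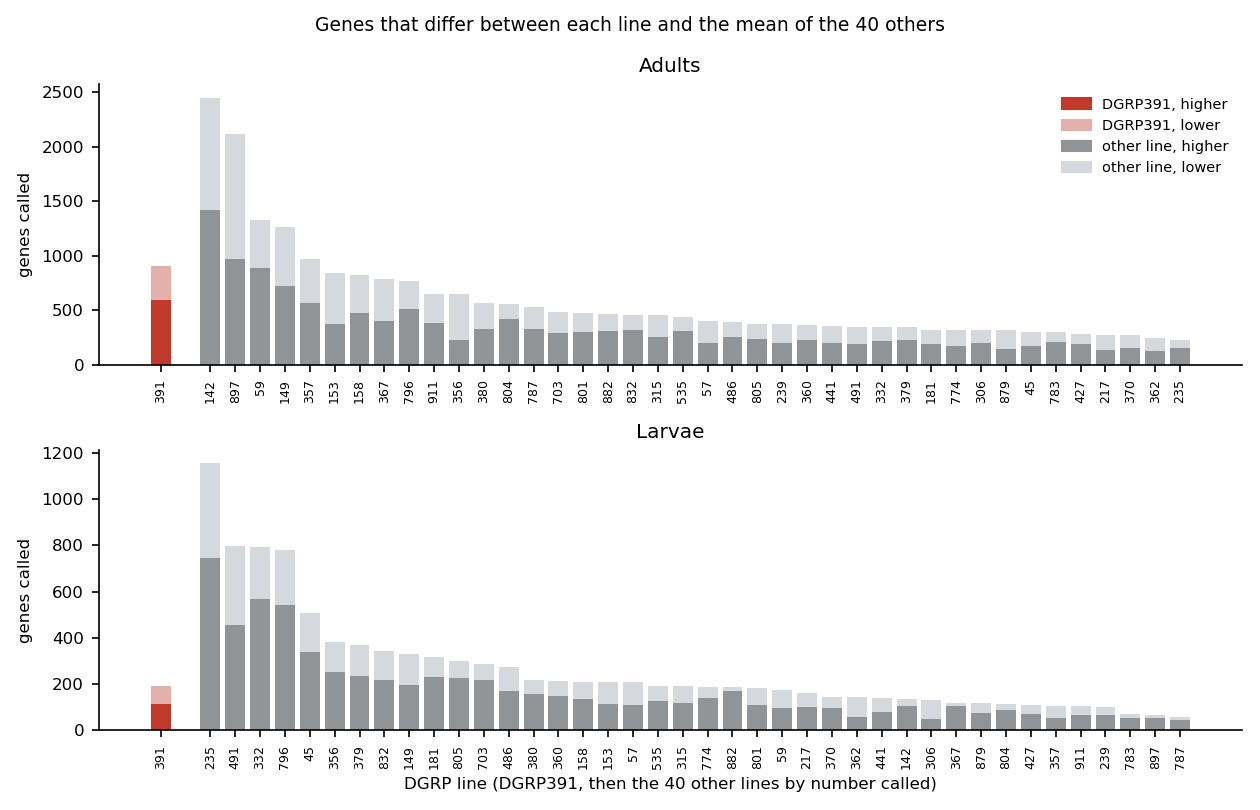
Number of genes called higher (dark) and lower (light) in each line against the mean of the 40 others, for adults above and larvae below, with DGRP391 in red at the left. DGRP391 had 908 calls in adults, where 5 lines had more, and 190 in larvae, where 19 lines had more. DGRP787 and DGRP491 had 1 larval library each.

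The largest adult increase outside the genes above was in Jon99Ci, another Jonah-family protease gene. It had 568 and 613.4 CPM in DGRP391 adults, against 1.752, 102.4 and 491 CPM as the lowest, median and highest of other adults, so the groups did not overlap. Its log2 fold change was 2.83 ± 0.36 (SE, edgeR adjusted p = 1.084e-07). In larvae Jon99Ci had 114.5 and 97.42 CPM in DGRP391, against a median of 94.28 CPM in other larvae, and did not pass (adjusted p = 0.5824). The test of the difference between stages did not pass for it either (adjusted p = 0.07304). The Jonah genes are close paralogues in which the counting may have split reads.

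Further large increases in DGRP391 adults were 1.67 for the odorant-binding protein gene Obp56a, 1.65 for smp-30, 1.59 for the UDP-glycosyltransferase gene Ugt37A2 and 1.56 for CG3588, all as log2 fold changes. CG3588 had 42.52 and 36.04 CPM in DGRP391 adults, against 4.762, 12.95 and 30.38 CPM as the lowest, median and highest of other adults. Obp56a had 176.8 and 130.7 CPM in DGRP391, against 4.44, 52.93 and 317.6 CPM. Of these 4 genes only CG3588 lay above every other adult library. Ugt37A2 did not pass without adult replicate 1 (edgeR adjusted p = 0.116).

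Among adult reductions, the alpha-tubulin gene alphaTub85E had 10.57 and 10.61 CPM in DGRP391 adults, against 6.534, 32.73 and 56.46 CPM as the lowest, median and highest of other adults. This was a log2 fold change of -1.57 ± 0.17 (SE, edgeR adjusted p = 2.266e-09). The coagulation gene fon had 78.04 and 93.82 CPM in DGRP391, against 119.4, 224.2 and 403.7 CPM, below every other adult library. CG18213 had 2.712 and 4.79 CPM in DGRP391, against 2.818 to 24.04 CPM, and did not pass without adult replicate 1 (adjusted p = 0.107).

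Many genes of the mitochondrial respiratory chain were called higher in DGRP391 adults against the mean of the other lines. Of 31 measured subunits of complex I, which takes electrons from NADH, 14 were higher and 0 were lower, or 45.2% against 12.2% of all genes called. Of 21 genes of complexes II to IV, 8 were higher and 0 lower. Of 12 genes of complex V, the ATP synthase, only ATPsynCF6 was higher and none was lower, and that call was lost when either adult replicate was left out. The list medians were 0.44, 0.51 and 0.32, against -0.003 over all genes. ND-51 had 1192 and 1142.7 CPM in DGRP391 adults, against 422.4, 704.2 and 1174 CPM as the lowest, median and highest of other adults, a log2 fold change of 0.72 ± 0.12 (SE, edgeR adjusted p = 1.485e-05). COX5B, a subunit of complex IV, had 501.2 and 568.1 CPM in DGRP391, against 189, 341.4 and 582.3 CPM, a log2 fold change of 0.64. SdhC of complex II had 462.8 and 475.2 CPM in DGRP391, against 163.3 to 564.3 CPM. For these 2 genes the DGRP391 mean was the highest of 41 lines, but single libraries of other lines reached the same levels.

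The respiratory chain counts depended on the test and on both adult replicates. In the limma test with each line as 1 value, 0 genes of complex I and 0 of complexes II to IV were called higher. With the libraries in 2 groups, so that spread among lines entered the error, 2 and 1 were. A 1.5-fold threshold left 0 and 0. Without adult replicate 1 there were 5 calls in complex I and 4 in complexes II to IV, and without adult replicate 2 there were 4 and 1. The medians kept their sign, at 0.48 and 0.62 without replicate 1 and 0.29 and 0.37 without replicate 2. COX5B and SdhC lost their calls without replicate 2 (edgeR adjusted p = 0.115 and 0.0577). The summed level of the complex I list was 8480 and 9280 CPM in DGRP391 adults, against 4510, 6470 and 10500 CPM as the lowest, median and highest of other adults. In larvae, where 2.56% of all genes were called, no gene of the 3 lists passed. The larval list medians were 0.24, 0.17 and 0.23, of which the last 2 were -0.01 and -0.03 without larval replicate 1. Medians of the muscle and neuron marker lists also lay away from 0 in adults. The sarcomere list had a median of 0.24, with 22 of 25 genes above 0, and summed to 22200 and 20400 CPM in DGRP391 adults, against 13700, 19000 and 27700 CPM as the lowest, median and highest of other adults. The synaptic list had a median of -0.43. The part of cell composition in the respiratory chain values was not tested.

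Detoxification genes changed in both directions in DGRP391 adults. Of 53 measured cytochrome P450 genes, 19 were higher and 4 were lower, with a list median of 0.27. Of 18 UDP-glycosyltransferase genes, which couple sugars to small molecules, 9 were higher and 0 lower, with a median of 0.35. Of 20 glutathione S-transferase genes, 6 were higher and 2 lower, with a median of -0.01 that was 0.17 with pool as a factor and 0.11 without adult replicate 1. The shares called were 43.4%, 50.0% and 40.0%, against 12.2% of all genes (8.04% higher and 4.21% lower). In the limma test with each line as 1 value, 0 genes of these 3 lists were called higher. The count was also 0 in each list with the libraries in 2 groups, so that spread among lines entered the error. A 1.5-fold threshold left 1 higher P450, 0 UDP-glycosyltransferase and 1 glutathione S-transferase genes. Cyp4d1 had 43.17 and 56.6 CPM in DGRP391 adults, against 2.642, 19.23 and 72.01 CPM as the lowest, median and highest of other adults, a log2 fold change of 1.51 ± 0.19 (SE, edgeR adjusted p = 7.061e-08). Cyp6g1, known for insecticide resistance, had 5873.1 and 5661.8 CPM in DGRP391, against 466.3, 4377.6 and 8698.2 CPM, a log2 fold change of 0.51. Ugt37D1 and Ugt302C1 had log2 fold changes of 1.10 and 0.81. The 4 lower P450 genes were Cyp4e3, Cyp310a1, Cyp4s3 and Cyp28d2, with log2 fold changes of -1.74, -1.51, -0.96 and -0.78.

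Without adult replicate 1 the higher counts were 7 P450, 5 UDP-glycosyltransferase and 1 glutathione S-transferase genes, and without adult replicate 2 they were 12, 5 and 4. The adult calls of Cyp6g1 and Cyp4e3 were lost when either adult replicate was left out, with adjusted p of 0.182 and 0.293 without replicate 1. Those of Cyp28d2 and Cyp4s3 were lost without adult replicate 1 (0.592 and 0.148), and those of Cyp4e3 and Cyp28d2 with pool as a factor (0.051 and 0.0566). The P450 and UDP-glycosyltransferase genes include tandem copies whose reads cannot be told apart with certainty.

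In larvae, 7 P450 genes were higher and 4 lower in DGRP391, 3 UDP-glycosyltransferase genes were higher and none lower, and 1 glutathione S-transferase gene was higher and 1 lower. The shares called were 20.8%, 16.7% and 10.0%, against 2.56% of all genes in larvae (1.52% higher and 1.04% lower). In the limma test with each line as 1 value, 0 larval P450 genes were called in either direction. It called 0 UDP-glycosyltransferase genes higher, and these counts were also 0 with the libraries in 2 groups. Cyp6w1 was higher at both stages, with a log2 fold change of 0.86 in adults and 2.61 in larvae, and its adult call was lost when either adult replicate was left out (edgeR adjusted p = 0.0648 and 0.0903). Cyp4d2, Cyp4ac1, Cyp12e1, Cyp12a5, Cyp12a4 and Cyp6g1 were the other P450 genes higher in larvae, and all 6 were also higher in adults. Ugt301D1, Ugt302C1 and Ugt303A1 were higher at both stages. The larval P450 counts were 3 higher without larval replicate 1 and 1 without larval replicate 2, with 2 lower in both cases. With pool as a factor 3 P450 genes and 1 UDP-glycosyltransferase gene were higher, and 1 UDP-glycosyltransferase gene was higher without larval replicate 1 or 2.

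Digestive enzymes gave calls in both directions within families in DGRP391 adults. Of 19 digestive serine protease genes, 5 were higher (Jon99Ci, iotaTry, betaTry, zetaTry and kappaTry) and 3 were lower (Jon74E, epsilonTry and alphaTry), or 42.1% called against 12.2% of all genes. alphaTry, epsilonTry and betaTry are neighbouring trypsin genes on 2R. alphaTry had 896.9 and 1153.9 CPM in DGRP391 adults, against 814.4, 2460.8 and 5269.7 CPM as the lowest, median and highest of other adults, and betaTry had 2900.4 and 3904.1 CPM, against 112.6, 2173.6 and 5314.1 CPM. Their log2 fold changes were -1.27 and 0.84. betaTry lost its call when either adult replicate was left out (edgeR adjusted p = 0.139 and 0.46), alphaTry without replicate 1 (0.0926), zetaTry when either was left out (0.123 and 0.183) and kappaTry without replicate 2 (0.179). Of 8 genes of carbohydrate digestion, Mal-A4, Mal-A6 and tobi were higher and Mal-B2 was lower. Without adult replicate 1 only Mal-A4 of these passed, with adjusted p of 0.112 for Mal-A6, 0.181 for tobi and 0.193 for Mal-B2, and Mal-B2 was also lost without adult replicate 2 (0.3) and with pool as a factor (0.0775). The summed level of the serine protease list was 9090 and 13500 CPM in DGRP391 adults, against 4000, 13000 and 31200 CPM as the lowest, median and highest of other adults. In the limma test with each line as 1 value, 0 of the 19 protease genes were called in either direction. It called 0 carbohydrate digestion genes higher. With the libraries in 2 groups, so that spread among lines entered the error, these counts were also 0. A 1.5-fold threshold left 2 higher and 2 lower proteases and 0 higher carbohydrate digestion genes.

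**Figure D4:**
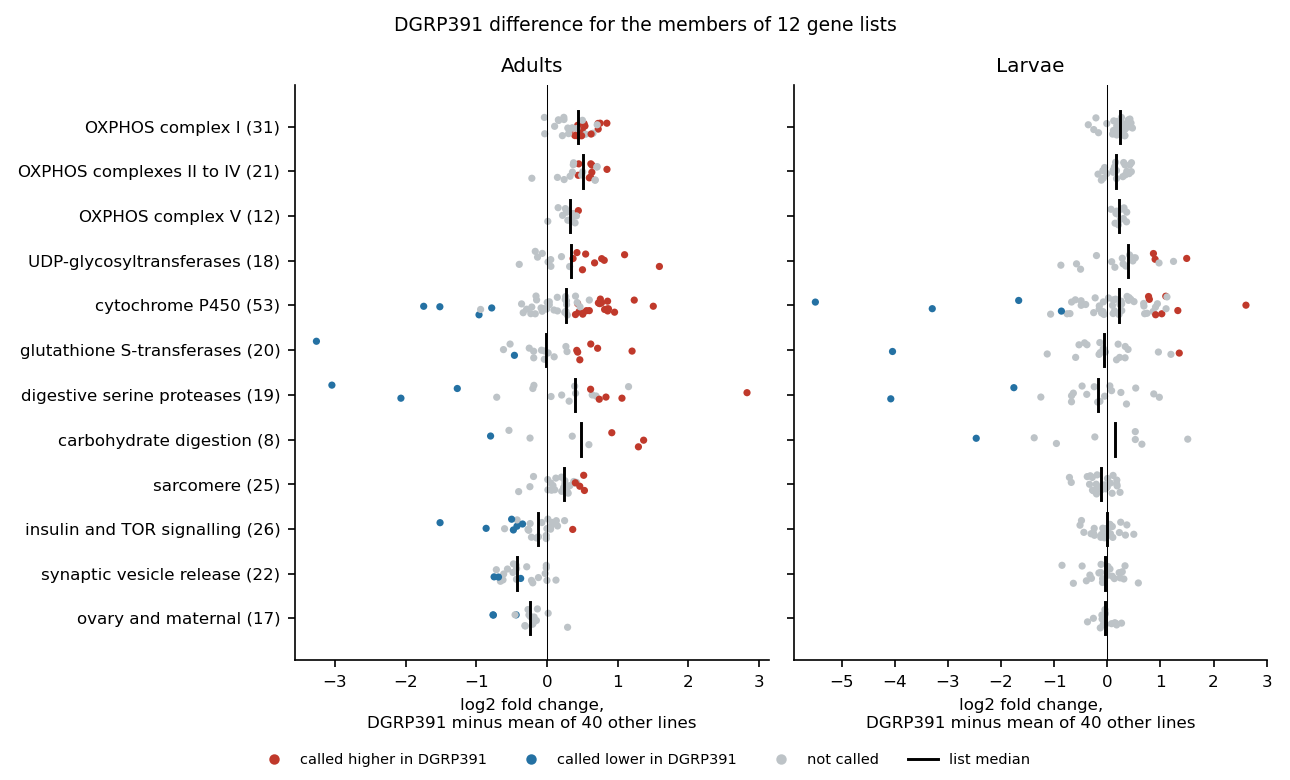
Log2 fold change between DGRP391 and the mean of 40 other lines for each measured member of 12 gene lists, adults on the left and larvae on the right, with the number of members in brackets. Red and blue points are genes called higher and lower, grey points are genes not called, and the black bar is the list median. In adults the medians of the respiratory chain lists were 0.44, 0.51 and 0.32, and that of the synaptic list was -0.43.

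Some nutrient signalling genes were lower in DGRP391 adults. Of 26 genes of the insulin and TOR pathway, 6 were lower and 1 was higher, or 26.9% called, against 12.2% of all genes called, 4.21% lower and 8.04% higher. The largest change was in ImpL2, a secreted protein that binds insulin-like peptides and restrains the pathway. ImpL2 had 83.24 and 89.54 CPM in DGRP391 adults, against 105.3, 246.4 and 596.6 CPM as the lowest, median and highest of other adults, so the groups did not overlap. Its log2 fold change was -1.51 ± 0.22 (SE, edgeR adjusted p = 1.697e-06). The insulin receptor gene InR fell by 0.86 on the log2 scale, the kinase genes Pdk1, Akt and S6k fell by 0.47, 0.42 and 0.50, and sima, the fly HIF-1 alpha gene, fell by 0.34. Sesn, an inhibitor of TOR, was higher by 0.37. In the limma test with each line as 1 value, 0 of the 26 genes were called lower, and with the libraries in 2 groups 1 was. With either adult replicate left out, ImpL2 was the 1 lower call of the list. Without replicate 1 the adjusted p was 0.168 for InR, 0.152 for Pdk1, 0.24 for Akt, 0.242 for S6k, 0.0882 for sima and 0.403 for Sesn, and all 6 were lost without replicate 2 as well. In larvae, where 2.56% of all genes were called, 0 of the 26 genes passed, with a list median of -0.01.

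Lipid genes of the fat body and oenocytes gave calls in both directions in DGRP391 adults. Of 6 fat body genes, 3 had a value above 0 and 1 was called, lower, with log2 fold changes of -0.98 to 1.02. That gene, Apoltp, the precursor of a lipid transfer particle, had 196.9 and 179.9 CPM in DGRP391 adults, against 209.3, 374.3 and 716.9 CPM as the lowest, median and highest of other adults, below all of them. FASN2, a fatty acid synthase, had 576.9 and 396.3 CPM in DGRP391, against 523.7, 933.2 and 2137.5 CPM, a log2 fold change of -1.01, and its 2 annotated same-strand overlapping genes leave its counts uncertain. The desaturase gene Desat1 had 1862.3 and 1967.5 CPM in DGRP391, against 1449.6, 3115.6 and 5698.7 CPM, a log2 fold change of -0.70. In all, 3 of 16 genes of fatty acid and triglyceride synthesis were lower and 0 higher, or 18.8% called. Over all genes 12.2% were called, 4.21% lower and 8.04% higher. In the limma test with each line as 1 value, 0 of these 16 genes were called lower, and 0 with the libraries in 2 groups. Of 6 oenocyte genes, FASN2 and Desat1 were lower and the elongase gene bond was higher, with a log2 fold change of 0.43. The share called was 50.0% of this oenocyte list and 16.7% of the fat body list. Apoltp and FASN2 lost their calls without adult replicate 2 (edgeR adjusted p = 0.0682 and 0.0639), Desat1 when either replicate was left out (0.213 and 0.139), and bond without adult replicate 2 (0.578). The summed level of the oenocyte list was 34400 and 26600 CPM in DGRP391 adults, against 23300, 36300 and 58400 CPM as the lowest, median and highest of other adults. The part of cell composition in these values was not tested.

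Markers of muscle, nervous tissue and ovary gave some calls in DGRP391 adults, and those of testis gave none. The shares called were 16.0% of the sarcomere list, all higher, and 0% of the testis list. They were 13.6% of the synaptic list and 17.6% of the ovary list, all lower. Over all genes 12.2% were called, 8.04% higher and 4.21% lower. In the limma test with each line as 1 value, 0 sarcomere genes were called higher, and 0 synaptic or ovary genes were called lower. These counts were also 0 with the libraries in 2 groups. Of 25 sarcomere genes, 4 were higher in DGRP391 adults and 0 lower, among them the troponin genes up and wupA and the tropomyosin gene Tm2 with log2 fold changes of 0.47, 0.40 and 0.52. All of these sarcomere calls were lost when either adult replicate was left out. Of 22 genes of synaptic vesicle release, unc-13, shi and Syx1A were lower and none was higher, and 20 of the 22 had a negative value. The summed level of the synaptic list was 5460 and 5280 CPM in DGRP391 adults, against 4220, 6500 and 10000 CPM as the lowest, median and highest of other adults. With sequencing pool as a factor, 9 synaptic genes were lower, while 1 was lower without adult replicate 1 and 0 without adult replicate 2. Of 17 measured ovary and maternal genes, bru1, mei-P26 and mus301 were lower, and of 10 measured testis genes none passed. The annotation holds 45 and 56 genes of these 2 lists. Markers silent in larvae were not analysed, so these counts cover only a part of each list. The ovary list summed to 3560 and 3570 CPM in DGRP391 adults, against 2800, 4310 and 5740 CPM, and the testis list to 5630 and 6650 CPM, against 3650, 7130 and 11000 CPM. The 3 ovary calls were lost when either adult replicate was left out. roX1 did not pass the test at either stage (edgeR adjusted p = 0.6115 in adults and 0.8721 in larvae).

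Smaller lists gave a few further adult calls in DGRP391. Of 6 measured cuticle protein genes (137 in the annotation), 4 were higher, among them obst-E with a log2 fold change of 1.04. Of 8 measured odorant-binding protein genes (52 in the annotation), 3 were higher. Of 24 genes of amino acid and urea metabolism, 4 were higher, and of 20 citric acid cycle genes 3 were higher, among them Idh with 0.59. The last 2 lists had 16.7% and 15.0% of their genes called, near the 12.2% of all genes. In the limma test with each line as 1 value, 0 genes of these 4 lists were called higher. The counts without adult replicate 1 were 2 cuticle, 1 odorant-binding, 0 amino acid and 1 citric acid cycle genes, and without adult replicate 2 there was 1 in each of the 4 lists. Idh was lost without adult replicate 1 (edgeR adjusted p = 0.085). Of 18 genes of the ecdysone and juvenile hormone response, 1 was higher, Jheh3, and 2 were lower, EcR and shd. EcR overlaps many annotated genes, so its counts are uncertain, and EcR and shd lost their calls when either adult replicate was left out, and Jheh3 without adult replicate 1 (0.0776). Few genes were called in some lists whose values still lay mostly on 1 side of 0. Of 83 cytoplasmic ribosomal protein genes 79 were above 0, with a median of 0.25, and only RpS15Ab passed, a call lost without adult replicate 2 (0.0755). None of 12 glycolysis genes passed, and all 12 were above 0, with a median of 0.19. None of 32 proteasome genes passed, with 29 above 0, and none of 36 DNA replication genes, with 9 above 0 and a median of -0.16.

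In larvae, 190 genes differed between DGRP391 and the mean of the other lines, 2.56% of the 7414 tested. Of these, 113 (1.52%) were higher and 77 (1.04%) were lower in DGRP391. The called genes had a median absolute log2 fold change of 0.90, a value that the threshold of the test helps to set and that does not compare with the adult one, and 34 genes were at least 2-fold higher and 42 at least 2-fold lower. Both DGRP391 libraries lay above every other larval library for 17 genes, 15 of them called, and below every other one for 15 genes, 13 of them called. Without larval replicate 1 there were 30 higher and 12 lower genes, and without larval replicate 2 there were 30 and 11. DESeq2 called 135 higher and 152 lower genes, so the larger share of higher genes was not kept by that test. With pool as a factor 45 were higher and 34 lower. The sign against the other lines of each pool was the same for all 190 genes. As in adults, this sign count reuses the libraries that gave the calls and does not test an effect of pool. The same contrast called 68 to 1153 larval genes in the other lines with 2 larval libraries. The median of all 40 other lines was 189.5, so DGRP391 sat near the middle of the panel at this stage. That median includes DGRP787 and DGRP491, which had 1 larval library each after the identical columns were left out.

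The largest increase seen in larvae but not in adults was in Ih, the gene of a hyperpolarisation-activated cation channel. In adults it had 170.9 and 158.1 CPM in DGRP391, against 87.26, 157.7 and 212.2 CPM as the lowest, median and highest of other adults. Larval levels were 230.3 and 283.8 CPM in DGRP391, against 21.69, 29.95 and 52.28 CPM, with no overlap between groups. The DGRP391 larvae thus stood far above every other line, while the DGRP391 adults lay inside the range of the others. The log2 fold change was 0.09 ± 0.15 (SE) in adults and 3.10 ± 0.10 in larvae (edgeR adjusted p = 0.7463 and 9.862e-28). Ih also passed in larvae when each line counted as 1 value.

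The chitin deacetylase gene Cda5 had 59.17 and 51.96 CPM in DGRP391 adults, against 25.69, 64.11 and 119.2 CPM as the lowest, median and highest of other adults. At the larval stage DGRP391 had 67.18 and 80.49 CPM, against 6.201, 15.49 and 96.95 CPM, and 1 other library was higher. Its larval log2 fold change was 2.16 ± 0.26 (SE, edgeR adjusted p = 6.264e-08), with 1 overlapping gene on its strand and 5 on the other. CG5321 had 39.28 and 41.77 CPM in DGRP391 larvae, against 2.848, 13.31 and 62.34 CPM in other larvae, a log2 fold change of 1.68.

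Among larval reductions, the cytochrome P450 gene Cyp4e3 had 3.671 and 3.044 CPM in DGRP391 larvae, against 2.804, 140.1 and 1317 CPM as the lowest, median and highest of other larvae. Its larval log2 fold change was -5.49 ± 0.89 (SE, edgeR adjusted p = 4.232e-05), and 1 of the other larval libraries was lower. Cyp28d2 had 3.763 and 2.557 CPM in DGRP391 larvae, against 3.031, 32.71 and 183.8 CPM in other larvae. CG13315 had 205.4 and 216.1 CPM in DGRP391 larvae, against 232.9, 762.4 and 2859.3 CPM, below every other larval library. The maltase gene Mal-A1 had 31.75 and 20.94 CPM in DGRP391 larvae, against 14.84, 136.5 and 900.8 CPM. The alkaline phosphatase gene Alp4 had 43.5 and 18.14 CPM in DGRP391 larvae, against 29.02, 160.3 and 409.3 CPM. CG18180 had 735 and 425.2 CPM in DGRP391 larvae, against 487.3 to 21385.6 CPM, and CG13323 had 100.9 and 75.5 CPM, against 44.44 to 1856.2 CPM. Without larval replicate 2 the larval calls of Cyp28d2, Mal-A1, Alp4, CG18180 and CG13323 were lost, with edgeR adjusted p of 0.167, 0.265, 0.0958, 0.253 and 0.107. Without larval replicate 1 those of Cyp28d2, Mal-A1 and CG18180 were lost (0.133, 0.169 and 0.108).

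Few larval lists held more than 1 call in DGRP391 beyond the detoxification genes. In fatty acid and triglyceride synthesis the acyltransferase genes mino and Agpat3 were higher and FASN2 was lower, out of 16 genes. In trehalose and glycogen metabolism UGP was higher and the trehalose transporter gene Tret1-1 was lower, out of 8. The larval calls of mino, Agpat3, FASN2, UGP and Tret1-1 were lost when either larval replicate was left out. UGP overlaps PGRP-LF on the opposite strand, which was also called higher in larvae. The PGRP-LF call was lost without larval replicate 1 or 2 (edgeR adjusted p = 0.75 and 0.291), with pool as a factor (0.137), with DESeq2 size factors (0.0512) and with a filter of 5 CPM (0.0522). Of 19 digestive serine proteases, 0 were higher and 2 lower, Jon74E and epsilonTry. The shares called were 18.8% of fatty acid and triglyceride synthesis, 25.0% of trehalose and glycogen metabolism and 10.5% of the proteases. Over all genes 2.56% were called in larvae. No gene of the larval lists for sarcomere (25), synaptic vesicle release (22), ovary (17) or testis (10) passed. At the share of all genes, lists of this size can hold no call, so their lack of calls says little.

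The difference between DGRP391 and the other lines itself differed between stages for 139 genes, 1.87% of those tested, by an interaction contrast of the edgeR fit over 162 libraries. For 105 of them the value in adults minus the value in larvae was positive, and for 34 it was negative. Only 75 of the 832 genes called in adults alone passed this test, and 33 of the 114 called in larvae alone. A call at 1 stage was therefore not, for most genes, shown to be a difference between stages. The count was 46 and 86 without adult replicate 1 and 2, and 49 and 34 without larval replicate 1 and 2.

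**Figure D5:**
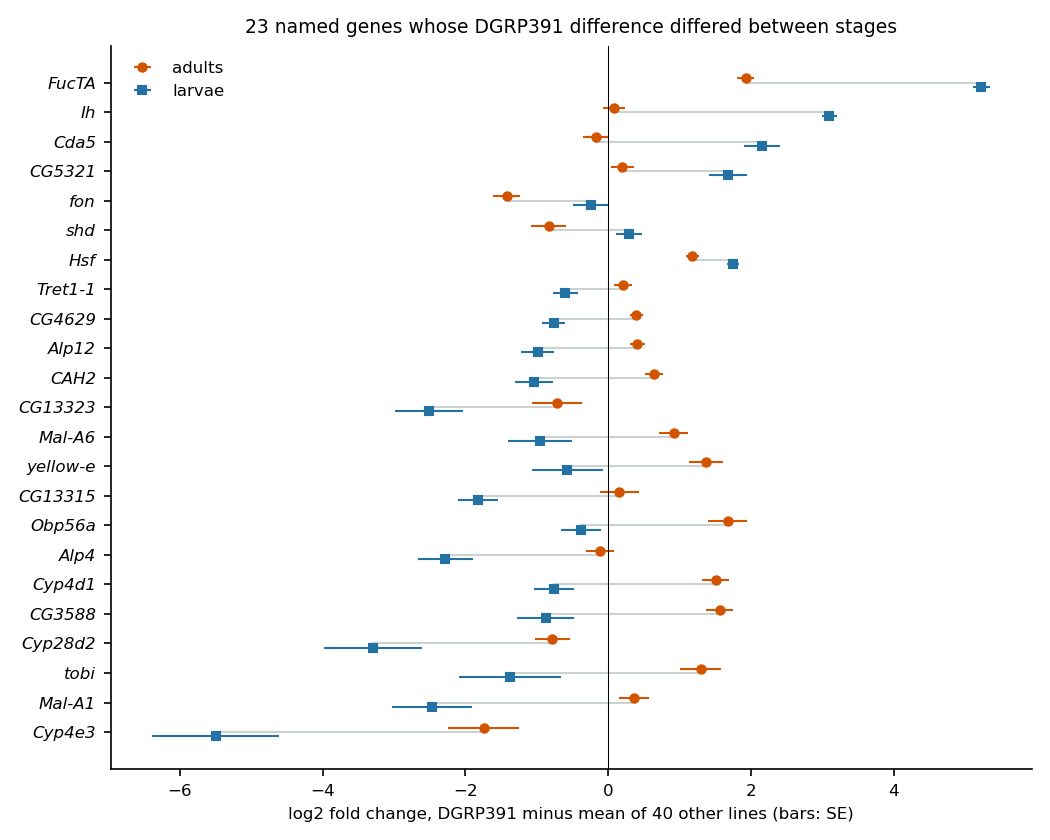
Log2 fold change between DGRP391 and the mean of 40 other lines in adults (orange circles) and larvae (blue squares) for 23 named genes that passed the test of the difference between stages, with bars of 1 SE. FucTA and Ih have the largest values in larvae, and Cyp4e3 has the lowest value at both stages.

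For genes called in larvae alone, the adult minus larval difference was -3.0 ± 0.23 (SE) for Ih, -2.31 ± 0.39 for Cda5, 2.84 ± 0.54 for Mal-A1, 2.18 ± 0.39 for Alp4 and 2.00 ± 0.38 for CG13315. Mal-A1 had 2461.9 and 2290.4 CPM in DGRP391 adults, against a median of 1876.3 CPM in other adults, so its reduction was measured in larvae only. Among genes called in adults alone, the difference was 2.69 ± 0.76 for tobi, a glucosidase gene under insulin control, 2.45 ± 0.46 for CG3588, 2.28 ± 0.37 for Cyp4d1, 2.08 ± 0.45 for Obp56a, 1.96 ± 0.57 for yellow-e and -1.17 ± 0.30 for fon. tobi had 1936.6 and 1396.4 CPM in DGRP391 adults, against a median of 538.4 CPM in other adults, and 27.26 and 12.42 CPM in DGRP391 larvae, against a median of 47.45 CPM in other larvae. Interaction calls of tobi, yellow-e and fon were lost without any 1 of the 4 DGRP391 libraries. That of Obp56a was lost without 3 of them (edgeR adjusted p = 0.0813, 0.0527 and 0.151), and those of Mal-A1 and Alp4 without larval replicate 2 (0.08 and 0.0967).

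Some genes called at both stages differed in the size of the change. FucTA was higher at both stages but by less in adults, with an adult minus larval difference of -3.28 ± 0.28 (SE), and Hsf likewise by -0.56 ± 0.14. Cyp4e3 and Cyp28d2 were lower at both stages but by less in adults, with differences of 3.77 ± 0.85 and 2.53 ± 0.66. Interaction calls were lost for Hsf without adult replicate 1 or 2 (edgeR adjusted p = 0.191 and 0.0748), without larval replicate 2 (0.532) and with pool as a factor (0.0702). They were lost for Cyp4e3 without larval replicate 1 or 2 (0.124 and 0.161), and for Cyp28d2 without adult replicate 2 (0.2), without larval replicate 1 or 2 (0.144 and 0.234) and with pool as a factor (0.0686). For CG12219, GstT4, Hel89B and Gagr this test did not pass (edgeR adjusted p = 0.0589, 0.2323, 0.9032 and 0.7908).

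Only 3 genes were called at both stages in opposite directions, each higher in adults and lower in larvae of DGRP391. The carbonic anhydrase gene CAH2 had 335 and 252.2 CPM in DGRP391 adults, against 41.32, 202.9 and 425.8 CPM as the lowest, median and highest of other adults. In larvae, DGRP391 had 41.3 and 29.96 CPM, against 19.5, 70.4 and 215.7 CPM. Its log2 fold change was 0.64 ± 0.13 (SE) in adults and -1.04 ± 0.27 in larvae. The alkaline phosphatase gene Alp12 had 0.41 in adults and -0.99 in larvae, and CG4629 had 0.39 and -0.76. All 3 passed the test of the difference between stages (edgeR adjusted p = 5.481e-05, 7.533e-05 and 5.151e-06). Alp12 and CG4629 lost the call of a stage without any 1 of the 4 DGRP391 libraries. For Alp12 the adjusted p was 0.267 and 0.063 without adult replicate 1 and 2, and 0.532 and 0.0973 without larval replicate 1 and 2. For CG4629 it was 0.054 and 0.0914 in adults and 0.373 and 0.0569 in larvae, and 0.07 in larvae with pool as a factor. For CAH2 the adjusted p was 0.207 without adult replicate 1, and 0.177 and 0.453 without larval replicate 1 and 2.

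By chromosome arm, the share of genes called in DGRP391 adults ran between 10.8% on X and 14.9% on chromosome 4, where 9 of 67 genes were lower and 1 was higher. In larvae it ran between 1.49% on chromosome 4 and 3.18% on 2R. Runs of 3 neighbouring genes of the table called in the same direction occurred 6 times in adults, always higher in DGRP391, and not in larvae. Higher adult genes were also the most frequent calls, at 8.04% of all genes. Lower adult genes made up 4.21%, and larval calls of either direction 2.56%. One run held the respiratory chain gene cype with fusl and Acsf2 on 2L, another the UDP-glycosyltransferase genes Ugt302C1, Ugt35B1 and Ugt35A1 on 3R, and another the eye colour transporter gene w with CG3588 and CG3603 on X. Each of these 3 runs lost at least 1 call without adult replicate 2, with adjusted p of 0.122 for cype, 0.615 for Ugt35B1 and 0.184 for w. Of neighbouring gene pairs with both members called, 78 moved together and 59 moved in opposite directions in adults, and 7 and 5 did so in larvae. Calls were unequal in direction, with 596 higher and 312 lower in adults. The numbers of runs and pairs to be expected from the shares called were not worked out.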

How the data were processed

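Whole-body polyA RNA of 41 inbred lines was sequenced as stranded libraries, 2 per line and stage, per the labels' protocols. The authors deposited 1 table of raw counts, with 7414 genes as rows and 164 libraries as columns, in which replicates are separate. FastQC, Trimmomatic and STAR and the builds BDGP6 and dm6 are named per the submitters' processing notes, without versions. The read counter and its strand setting are not given in the sources used here. Names and positions came from an Ensembl annotation of BDGP6, in which 7349 of the 7414 identifiers were found.

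Counts were TMM-normalised in edgeR 4.0.16 (R 4.3.3), separately by stage. Each stage was fitted with 1 coefficient per line (80 larval and 82 adult libraries), and DGRP391 was tested against the mean of the other 40 with the quasi-likelihood F test and Benjamini-Hochberg adjustment over all genes at 0.05. The spread in this test is that between replicates of a line, which may be technical in part. The spread among lines enters in the limma 3.58.1 test on line means and in the fit with the libraries in 2 groups. The stage difference was a contrast in 1 fit of 162 libraries with a coefficient per line and stage. CPM is a count scaled to a common library size with the TMM factors, and log2 levels used a prior count of 2. The groups, members and 43 gene lists were chosen with earlier results of these data known. Of these lists, 41 had at least 5 genes in the table and 2 did not.

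The fits were first tested on simulated data with seeded changes in DGRP391 and no other line differences. Seeded 1.5-fold changes were recovered for 67.2% of genes in adults, 37.3% in larvae and 10.4% in the stage contrast. For 2-fold changes the shares were 95.5%, 76.1% and 46.3%. Unchanged genes were 16 of 191 calls in adults, 14 of 153 in larvae and 0 of 97 in the stage contrast. In adults and in larvae this share was above the threshold of 0.05. The simulated data also held no effect of pool, so they were simpler than the real data.

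Named genes followed a rule. Per stage and direction they were the 8 called genes that changed most, at 10 CPM or more in the higher group and with DGRP391 among the 3 highest or lowest lines. To these were added 10 in each direction at both stages, all with opposite directions, 6 per stage that passed the stage contrast, up to 3 called genes per list and roX1. Genes that lay outside all other libraries at both stages, or that were called by the limma test or counted in a list of few calls, are also named and were chosen after their values were seen. Alternatives were DESeq2 1.42.0 and its size factors, a filter of 5 CPM, pool as a factor, a replicate block, 2 groups of libraries, a 1.5-fold threshold, roX1 as a covariate, all libraries, limma-voom for the stage contrast, and the fit without single DGRP391 libraries or without 3 mismatched larval libraries.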

Additional observations from a re-analysis of the deposited data

Results flagged for a closer look

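For 23 of the named genes the difference between DGRP391 and the other lines was itself different in adults and in larvae, by the interaction contrast of edgeR with Benjamini-Hochberg adjustment over 7414 genes. Values are the adult minus the larval log2 fold change.

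The value was negative for 7 genes. It was -3.28 for FucTA, -3.0 for Ih, -2.31 for Cda5, -1.46 for CG5321, -1.17 for fon, -1.11 for shd and -0.56 for Hsf. Of these, FucTA and Hsf were higher in DGRP391 at both stages, Ih, Cda5 and CG5321 in larvae alone, and fon and shd were lower in adults alone.

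The value was positive for the other genes. Cyp4e3 (3.77) and Cyp28d2 (2.53) were lower in DGRP391 at both stages. Mal-A1 (2.84), Alp4 (2.18), CG13315 (2.00), CG13323 (1.81) and Tret1-1 (0.83) were lower in larvae alone. The genes higher in adults alone were tobi (2.69), CG3588 (2.45), Cyp4d1 (2.28), Obp56a (2.08), yellow-e (1.96) and Mal-A6 (1.89). CAH2 (1.70), Alp12 (1.42) and CG4629 (1.17) were higher in adults and lower in larvae.

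Many of these calls needed all 4 DGRP391 libraries. Those of CG13323, CG5321, shd, tobi, yellow-e and fon were lost without any 1 of them, with an adjusted p of 0.11 to 0.344 for CG13323, and CG13323 was also lost with all 164 libraries (0.0686), with pool as a factor (0.0942) and with roX1 as a covariate (0.0548). Without larval replicate 2 the p was 0.532 for Hsf, 0.161 for Cyp4e3, 0.234 for Cyp28d2, 0.361 for Mal-A6, 0.275 for Tret1-1, 0.151 for Obp56a, 0.08 for Mal-A1 and 0.0967 for Alp4.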

How the results depend on the processing

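Of 2621 alternative values for 223 log2 fold changes of single genes, 1825 stayed on their side of the threshold, 796 no longer passed and 0 changed sign. Among the list medians given, those that changed sign were the adult glutathione S-transferase list (-0.01, but 0.17 with pool as a factor, 0.11 without adult replicate 1 and 0.003 with limma on line means), the adult chaperone list and the larval lists of complexes II to IV, complex V and insulin signalling. The last had 0.01 with limma on line means and 0.0001 without larval replicate 1. Without 1 DGRP391 library, the adult counts were 212 to 232 higher and 54 to 129 lower genes, and the larval counts were 30 higher in both cases and 11 to 12 lower. The same-direction count at both stages then ran from 25 to 48, and the count of genes whose difference differed between stages from 34 to 86. A threshold of 1.5-fold left 31 higher and 18 lower adult genes, 15 and 13 larval genes and 11 at both stages. With the libraries in 2 groups, so that spread among lines entered the error, the counts were 49 and 19 in adults, 19 and 8 in larvae and 11 at both stages. With limma on line means they were 5 and 6 in adults, 5 and 4 in larvae and 6 at both stages. With pool as a factor they were 721 and 438 in adults, 45 and 34 in larvae, 42 at both stages and 84 for the stage difference. DESeq2 called 152 lower larval genes and 221 genes for the stage difference. Precision is limited by the 2 DGRP391 libraries per stage. The cause of these changes was not tested.

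The replicate block gave 721 higher and 407 lower adult genes, 113 and 78 larval genes, 82 at both stages and 173 for the stage difference. Replicates of different lines share only a number. Deviations of same-numbered libraries from their line means correlated between lines with a mean r of 0.0877 over 820 pairs of lines in adults and 0.00967 over 741 in larvae, and DGRP391 ranged from -0.303 to 0.461 in adults and from -0.316 to 0.24 in larvae.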

Other observations

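Outside the genes named by rule, the limma test in which each line counted as 1 value singled out 5 further genes, chosen here after their values were seen. All but the hexosaminidase gene Hexo2 were called at both stages by the edgeR test. The DNA repair nuclease gene mei-9 had 5.477 and 3.98 CPM in DGRP391 adults, against 4.188, 8.235 and 13.11 CPM as the lowest, median and highest of other adults. In larvae it had 5.69 and 4.018 CPM in DGRP391, against 5.854, 10.63 and 16.01 CPM, below every other larval library. Irbp, the fly Ku70 gene of DNA end joining, had 31.07 and 23.21 CPM in DGRP391 adults, against 10.07, 14.23 and 25.91 CPM. In larvae it had 31.2 and 33.12 CPM in DGRP391, against 8.689, 17.48 and 28.88 CPM, above every other larval library. The calls of mei-9 were lost without replicate 2 of either stage (edgeR adjusted p = 0.149 in adults and 0.0521 in larvae), and those of Irbp without adult replicate 1 (0.0721) or larval replicate 2 (0.0848).

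Hexo2 had 202.2 and 171.6 CPM in DGRP391 adults, against 58.45, 83.96 and 166.9 CPM in other adults, above all of them. In larvae it had 30.38 and 25.69 CPM in DGRP391, against 20.38, 36.31 and 360.9 CPM, and did not pass (edgeR adjusted p = 0.275). The synaptotagmin gene Sytalpha had 7.375 and 7.001 CPM in DGRP391 adults, against 8.938, 19.59 and 37.53 CPM, below all other adults. It was also lower in DGRP391 larvae, with a log2 fold change of -1.37 (edgeR adjusted p = 0.0437), a call lost without larval replicate 1 or 2 (0.532 and 0.387) and with pool as a factor (0.293). CG42336 had 30.15 and 32.28 CPM in DGRP391 adults, against 28.57, 72.74 and 100.5 CPM, and 87.83 and 85.6 CPM in DGRP391 larvae, against 107.8, 200.1 and 320.7 CPM.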
